A study of Mus musculus with 20 samples.

Results

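Of 138116 regions narrower than 1500 bp that were scored for acetylation of histone H3 at lysine 27 (H3K27ac) in mouse cells turning into neurons, 11802 changed by less than 2-fold between the progenitor stage and day 1 and were lower by 2-fold or more at day 10. The groups were progenitors of neurons, neurons at day 1 and neurons at day 10, all with the strain label 159.2 and none with a treatment named for them. Each had 2 ChIP-seq libraries, which the authors deposited as 1 merged value per region and stage. No spread between libraries could therefore be computed, no test between stages was run, and every value below is a description of these merged libraries. Members were chosen from those same values, on the differences as computed, so that rounding decided changes of exactly 2-fold. A region was a member if its log2 enrichment at day 1 minus that in progenitors, the first step, lay between -1 and 1, and if its enrichment at day 10 minus that at day 1, the second step, was -1 or less, a fall of 2-fold or more. The whole table held 140641 regions, of which the members made up 8.54% of those under the width limit. They are called late-loss regions here.

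H3K27ac is written by the acetyltransferases p300 and CBP and removed by histone deacetylases. It marks active promoters and active enhancers, and enhancers carry it in a way that differs between cell types. As progenitors leave the cell cycle and mature into neurons, enhancers used by progenitors are known to lose the mark while those of neuronal genes gain it. The files gave each region an identifier, a number in the list and a width. Genome positions and nearby genes were not analysed here, so no gene or sequence is assigned to a region. For the same reason the FAIRE and NMDA tables of the series, whose regions carry other identifiers, could not be read at these regions.

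Reads in regions, as recovered from the deposited enrichment values, came to 17989355 in progenitors, 15324141 at day 1 and 11222465 at day 10. Whole reads were recovered from the deposited values for all members and for all but 1 of the other regions. Because the H3K27ac values name no gene, the stage labels could not be checked on them. Day 10 neurons of another experiment, given DMSO alone for 6 h as a control, had 2 RNA libraries. In these the neuronal tubulin gene Tubb3 had 25720 and 28109 normalised counts. Rbfox3, which encodes the neuronal nuclear protein NeuN, had 2727 and 2842, and the neurofilament gene Nefl had 11184 and 15248. The progenitor intermediate filament gene Nes had 415 and 437, so neuronal markers were abundant and the progenitor marker was present at a lower count.

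At the second step, 17862 narrow regions fell by 1 or more (12.9% of all narrow regions) and 12047 rose by as much (8.72%). At the first step, 5.36% had fallen and 6.62% had risen by 1 or more. Of the falls, 66.1% were late-loss regions, 28.6% were regions that had first risen by day 1 (5103 regions) and 5.36% had already fallen by day 1 (957 regions). Regions flat at the first step made up 88.0% of all narrow regions, so their share of the falls was below their share of the table. A fall after day 1 was seen in 9.71% of flat regions. It was seen in 55.8% of the 9140 that had risen by day 1 and in 12.9% of the 7404 that had fallen by then. Both steps use the same day 1 value with opposite sign, so error in that value alone favours a fall after a rise. Of the flat regions, 44702 had fewer than 16 reads at day 1 and could not fall by 2-fold with 16 reads added. What these limits add to the shares was not tested. A further 5972 regions fell by day 1 and then changed by less than 2-fold. Among the 121572 regions that were flat at the first step, 9.71% were late-loss regions and 9.34%, or 11356 regions, rose by 1 or more at the second step. That near balance was seen on the deposited scale. Falls and rises were 7.15% and 11.6% with each step centred on its median, and 5.41% and 18.9% with stages scaled to equal reads in regions. The plot of both steps shows the members as the lower middle field of one continuous cloud.

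**Figure D1:**
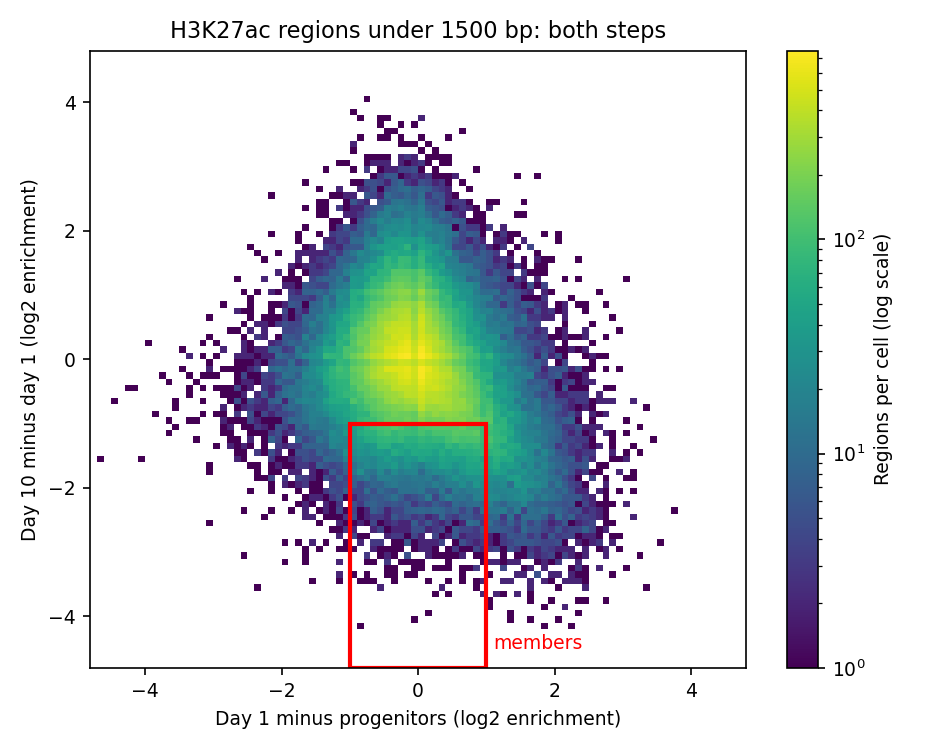
Number of H3K27ac regions under 1500 bp (colour, log scale) by the first step (x axis, day 1 minus progenitors, log2) and the second step (y axis, day 10 minus day 1, log2). The red frame encloses the 11802 members, and no gap separates them from the regions around them.

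Before the fall, late-loss regions carried more H3K27ac than most regions, which the rule in part fixes. Their median log2 enrichment was 1.49 in progenitors, 1.69 at day 1 and 0.24 at day 10, against 0.64, 0.65 and 0.62 over all narrow regions. The middle 50% of members spanned 0.75 to 2.99 in progenitors, 1.15 to 2.93 at day 1 and -0.18 to 1.30 at day 10. In reads per kb of region, the members had medians of 159 in progenitors, 195 at day 1 and 44.0 at day 10, where all narrow regions had 80.5, 80.0 and 77.8. Members thus lay above the typical read density until day 1 and below it at day 10. They held 24.2% of all reads in regions in progenitors, 23.7% at day 1 and 11.2% at day 10, with exact 95% binomial intervals of 24.2 to 24.2%, 23.6 to 23.7% and 11.2 to 11.2%. These intervals, like all others given here, cover counting error only.

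**Figure D2:**
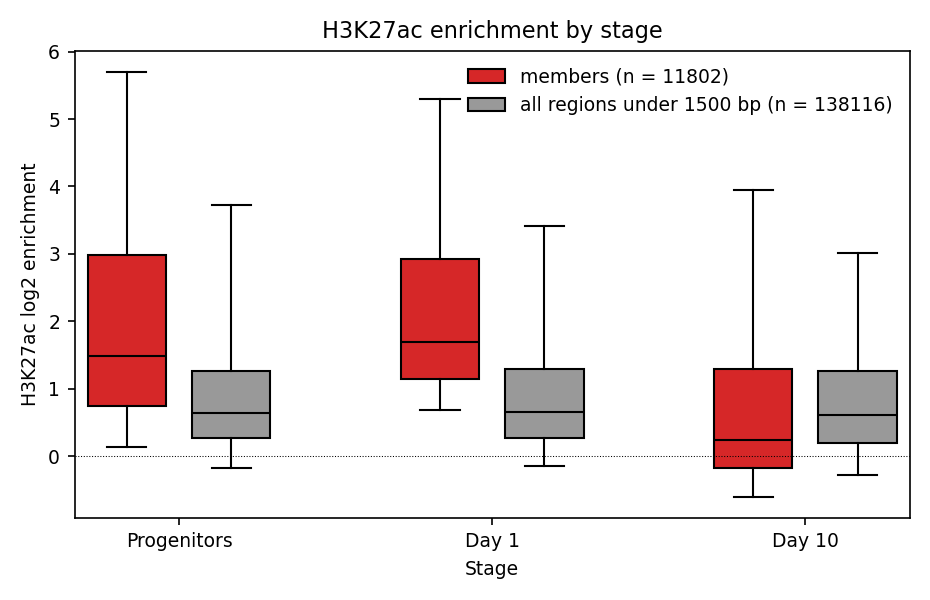
H3K27ac log2 enrichment at the 3 stages for the members (red) and for all regions under 1500 bp (grey). Boxes span the quartiles, lines mark medians and whiskers reach the 5th and 95th percentiles; the member median was 1.49, 1.69 and 0.24, while that of all narrow regions stayed between 0.62 and 0.65.

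The word lost fitted some members better than others. At day 10, 4305 members (36.5%) had a log2 enrichment below 0, which means fewer reads than the scaled reference that the authors divided by. Another 4095 (34.7%) lay between 0 and 1. The remaining 3402 members, or 28.8%, still had an enrichment of 1 or more at day 10, among them 2299 at 2 or more and 545 at 4 or more. At day 1 that share had been 82.8%. Over all narrow regions it was 33.0% at day 10 and 33.5% at day 1. An enrichment of 2 or more at day 10 was seen in 19.5% of members and in 12.6% of all narrow regions. One below 0 was seen in 36.5% and 14.6%. The members still at 2 or more had a median enrichment of 5.08 in progenitors, 4.72 at day 1 and 3.39 at day 10. Those were strong regions that were lower at day 10 but had kept the mark. Their median second step was -1.26. All flat regions had one of -0.88 at a day 1 enrichment of 4 to 5 and of -1.12 at 5 to 6. Reads in regions were fewest at day 10, and the part of that in these falls was not tested.

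Most falls were moderate. The median second step was -1.29, with quartiles of -1.57 and -1.12, and 10752 members (91.1%) fell by less than 4-fold. A fall of 4-fold to 8-fold was seen in 976 members, one of 8-fold to 16-fold in 72, and a larger one in 2. Because the deposited values add 16 reads to each count, they understate the change of regions with few reads. As a plain ratio of reads, day 10 over day 1, the median member stood at 0.246 (quartiles 0.160 and 0.347). Members with at least 100 reads at day 1, of which there were 5407, stood at a median of 0.339. With 16 reads added, a region with few reads meets the rule only at a lower plain ratio. The difference between these medians is therefore in part fixed by the rule.

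Region 72870 had the largest fall among members. This 1187 bp region had 2866 reads in progenitors, 1589 at day 1 and 73 at day 10, and its log2 enrichment was 5.83, 4.98 and 0.81. Its second step was -4.17, and its reads at day 10 were 0.0459 of those at day 1 (exact 95% interval 0.0358 to 0.0581). It was already somewhat lower at day 1, by 0.84 on the log2 scale. Region 72871, next to it in the list, had 4672, 4504 and 250 reads at the same stages and an enrichment of 6.95, 6.90 and 2.82. It was among the strongest of all regions until day 1 and still stood well above the reference at day 10, although its second step was -4.09.

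The other steep falls ended at different levels. Region 123071 had 665 reads in progenitors, 746 at day 1 and 33 at day 10, a second step of -3.96 that ended at an enrichment of 0.47. Region 45683 had 305, 412 and 17 reads and ended below the reference, at -0.45. Both were slightly higher at day 1 than in progenitors, by 0.16 and 0.42 on the log2 scale. Region 66903, only 182 bp wide, had 180, 368 and 14 reads, and region 3769 had 564, 1081 and 70; they ended at 0.70 and 1.42. These last regions were higher by 0.97 and 0.92 at day 1 than in progenitors, close to the upper limit of the first step, so their day 1 value was a peak rather than a plateau.

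The strongest members stayed strong. Region 82942 had the highest enrichment of any member in progenitors, with 7507 reads in progenitors, 6787 at day 1 and 1589 at day 10. Its log2 enrichment was 8.15, 8.00 and 5.92, which also placed it among the 4 highest members at day 10. Region 37612 had 6651, 4631 and 1917 reads, region 59539 had 5862, 3385 and 1322 and region 72887 had 5173, 3450 and 989. All of these were lower at each later stage, with a first step of less than 2-fold. The highest members at day 10 were region 78581 at 6.02, region 119103 at 5.96 and region 62690 at 5.93, with second steps of -1.14, -1.15 and -1.22. A region at this level could be a member and remain among the most acetylated regions of day 10 neurons.

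At the other end, the median member at day 1, region 33944, was 438 bp wide and had 31 reads in progenitors, 67 at day 1 and 17 at day 10. The widest member, region 13420 at 1499 bp, had 720, 445 and 86 reads. The narrowest, region 197 at 151 bp, had 11, 16 and 0 reads. The fewest day 1 reads that allow a member are 16, since 16 reads are added to each count, and 46637 narrow regions (33.8%) had fewer at day 1 and could not be members whatever happened later. In 1009 members no stage reached 30 reads, and 78 members had 0 reads at day 10.

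Counting error alone left some memberships open. The exact 95% interval of the read ratio of day 10 to day 1 lay wholly below 0.5 in 8786 members (74.4%). The interval of the ratio of day 1 to progenitors lay within 0.5 to 2 in 5572 (47.2%). Both held in 4028 members, or 34.1%. Those better-measured members were wider, with a median of 707 bp, and had a median of 252 reads in progenitors, 254 at day 1 and 59 at day 10. Their median enrichment was 2.75 in progenitors, 2.77 at day 1 and 0.94 at day 10. All these intervals are of plain read ratios, whereas the rule adds 16 reads to each count. An interval below 0.5 therefore does not make a membership firm. Region 197, exactly at the limit of the second step, had an interval of 0 to 0.259. The intervals also rest on the reads by which the members were chosen.

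Members near a limit were many. At the second step 2571 members (21.8%) fell by less than 1.1, while 2809 regions flat at the first step missed the limit by less than 0.1. Exactly 2-fold lower counts, 16 added, were found in 558 narrow regions flat at the first step, and rounding in the last decimals put 381 of them inside and 177 outside. Region 197, with 0 reads at day 10 against 16 at day 1, region 209, with 2 against 20, and region 212, with 3 against 22, lay just inside. Region 1630, with 11 reads at day 10 against 38 at day 1, region 14787, with 20 against 56, and region 59492, with 9 against 34, lay just outside. Changes of exactly 2-fold at the first step, 16 added, were found in 151 narrow regions that fell after day 1. Rounding put 44 of them inside, which the rule taken exactly leaves out, and 107 outside. Among these, region 71553, with 82 reads at day 1 against 180 in progenitors, and region 65051, with 72 against 28, were inside. Region 40364, with 229 against 474, and region 1841, with 18 against 1, were outside.

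The flat first step hid a spread of histories. Day 1 was higher than the progenitor stage in 7068 members (59.9%), against 43.0% of all narrow regions that were flat at that step. It was lower in 4664 and equal in 70. On the deposited scale the direction turned with the read count. Among the 4028 better-measured members day 1 was higher in 1612 (40.0%) and lower in 2368. Members with at least 100 reads at day 1 had a median read ratio of day 1 to progenitors of 0.902, against 1.20 over all members. These ratios are not scaled between stages, and all regions together held 15324141 reads at day 1 against 17989355 in progenitors. The 4028 were also chosen in part by this same ratio. With stages scaled to equal reads in regions, day 1 was higher in 70.3% of that setting's regions. Whether the turn holds on that scale was not tested. The 3924 members that were higher at day 1 by 0.5 or more had median enrichments of 0.69 in progenitors, 1.44 at day 1 and 0.04 at day 10. Beside the members as a whole they were weak and narrow, with a median of 339 bp against 472 bp. All narrow regions had a median of 299 bp, with enrichments of 0.64 in progenitors and 0.65 at day 1. These members were somewhat higher at day 1 and then dropped. The 1927 members that were lower at day 1 by 0.5 or more had medians of 3.82, 3.12 and 1.62 and were 740 bp wide at the median. They were strong regions that were lower at each later stage. The 5951 members within 0.5 lay between, at 1.70, 1.75 and 0.27. The day 1 value enters both steps with opposite sign, so the steps are not independent measures.

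From progenitors to day 10, the members differed by a median of -1.21 (quartiles -1.73 and -0.74). In 7171 members (60.8%) day 10 was at least 2-fold below the progenitor stage, against 14.7% of all narrow regions. The rule fixes this for the 4664 members lower at day 1 and the 70 equal. Of the 7068 members higher at day 1, 2437 (34.5%) reached it. In no member did day 10 exceed the progenitor stage, which the limits of the rule fix. The net fall reached 2-fold in 18.5% of the members that were higher by 0.5 or more at day 1, in 75.9% of those within 0.5 and, again by the rule, in all that were lower by 0.5 or more.

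How often a flat region fell later varied with how strongly it was acetylated before. Of regions flat at the first step with a progenitor enrichment of 0 to 1, 5.23% were members. The share was 14.5% at 1 to 2, 24.9% at 2 to 3, 22.1% at 3 to 4, 33.0% at 4 to 5, 54.0% at 5 to 6 and 78.3% (394 of 503 regions) above 6. Late rises ran the other way, with 22.1% among regions below 0, 9.69% at 0 to 1, 0.148% at 4 to 5 and 0 of the 2015 regions above 5. Binned by the day 1 value, the share of members was 2.71% at 0 to 1, 23.7% at 1 to 2 and 82.7% above 6. The low shares in weak regions are in part fixed by the rule. Of the flat regions, 44702 had fewer than 16 reads at day 1 and could not be members, all at a day 1 enrichment below 1. The second step also subtracts the day 1 value, which by itself favours falls in high day 1 bins and rises in low ones. Above a progenitor enrichment of 6 the members had a median second step of -1.35 and all flat regions one of -1.25. At 0 to 1 the members had -1.21 and all flat regions 0.03. The members' medians are bounded by the rule and only describe their falls. Reads in regions were also fewest at day 10, and the part of that in the falls of strong regions was not tested.

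**Figure D3:**
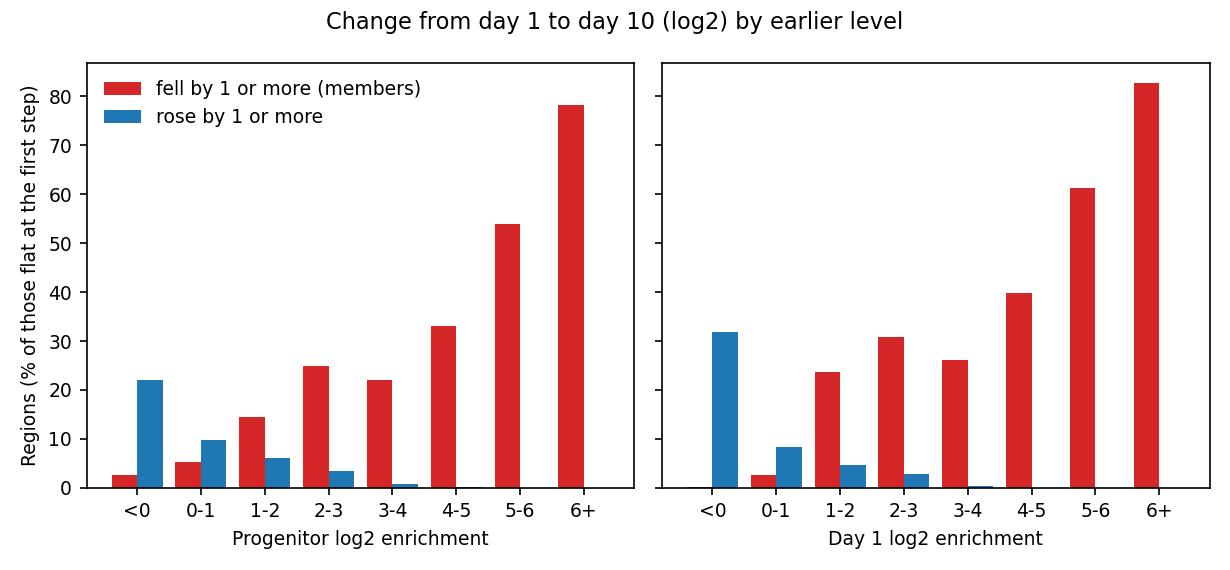
Share of regions flat at the first step that fell (red, the members) or rose (blue) by 1 or more from day 1 to day 10, by progenitor enrichment (left) and by day 1 enrichment (right), both log2. The red bars reach 78.3% and 82.7% in the strongest regions, where no blue bar is seen.

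Membership varied with the scale set between stages. Set against regions of like day 1 value, a comparison chosen after seeing the data, 4481 regions fell by 1 or more, and 3794 of them were members (32.1% of members). With counts scaled to the same number of reads in regions at each stage, which raises the second step by 0.45 for large counts, the rule gave 6504 regions, and 6234 of them were members (52.8%).

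Late-loss regions were wider than most, with a median of 472 bp (quartiles 282 and 772) against 299 bp over all narrow regions (197 and 517). Regions lost by day 1 only had a median of 455 bp and regions lost at both steps 757 bp. Of regions flat at the first step, 4.39% of those under 250 bp were members and 16.9% at 500 to 750 bp. The share was 23.7% at 750 to 1000 bp and 18.7% at 1250 to 1500 bp. Late rises were seen in 4% under 250 bp, 12.3% at 250 to 500 bp and 16.8% at 500 to 750 bp. They were seen in 14.6% at 750 to 1000 bp and 12% at 1250 to 1500 bp. Falls and rises were thus both least frequent under 250 bp. Regions with fewer than 16 reads at day 1 could not be members. What this adds to the order of the members' shares was not tested. Width and level go together, however. Among regions with a day 1 enrichment of 2 to 3 the order was turned round, with 48.4% members under 250 bp, 32.0% at 500 to 750 bp and 16.7% at 1250 to 1500 bp. That order was examined by width bin at this level alone. Below a day 1 enrichment of 1, members had a median width of 259 bp and all flat regions one of 232 bp. Of 1915 regions of 1500 bp or wider that were flat at the first step, 472 (24.6%) fell by 1 or more.

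Late-loss regions lay close together in the authors' list. The list numbers run from 1 to 140641 without a gap. Whether they follow the order of the genome is not stated in the labels or files. Of the narrow regions next in number to a member, 28.9% were members themselves, against 8.54% of all narrow regions. A region at the given distance from 2 members was counted once for each, here and at the other distances. At a distance of 2 numbers the share was 20.7%, at 5 it was 14.2%, at 20 it was 11.3%, at 100 it was 8.86% and at 1000 it was 8.54%. Of the adjacent regions 36.9% fell by 1 or more at the second step, against 12.9% of all narrow regions, and 1.87% rose, against 8.72%. Their median second step was -0.73. In all, 5504 members (46.6%) stood beside another member, in 2156 runs, of which 260 had 4 or more members. Where neighbours in the list share a locus, they are not independent counts of a change.

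**Figure D4:**
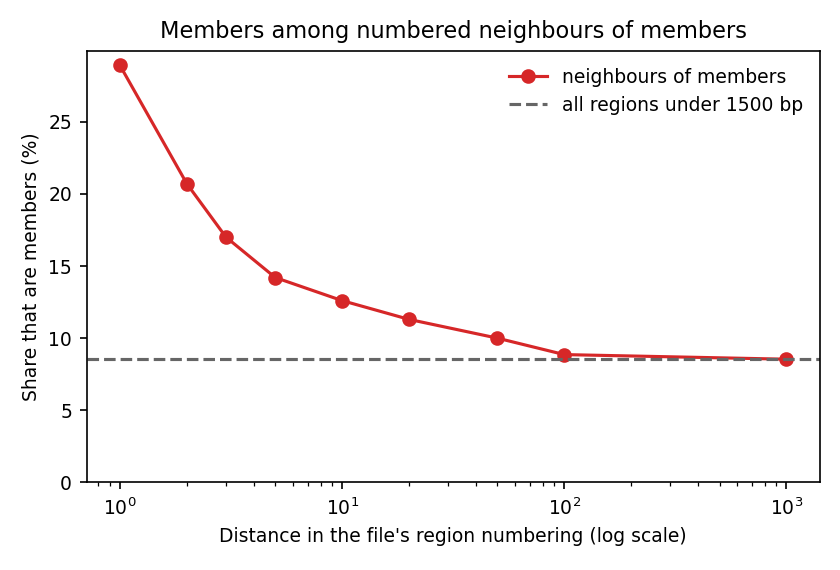
Share of narrow regions that are members, by their distance from a member in the list numbering (log scale), each region counted once per member at that distance. The share is 28.9% next to a member and comes down to the 8.54% of all narrow regions (dashed line) at a distance of 1000.

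The longest run held 12 members, regions 52166 to 52177, between 223 and 1297 bp wide. Together they had 7861 reads in progenitors, 6604 at day 1 and 1168 at day 10. Reads at day 10 were 0.177 of those at day 1 (exact 95% interval 0.166 to 0.188). The second step ranged from -2.80 to -1.08, and 6 of the 12 fell by 4-fold or more. Region 52176 was the peak of the run, with 4077 reads in progenitors, 3181 at day 1 and 443 at day 10, an enrichment of 6.76, 6.40 and 3.60. Region 52168, in the lower part of the run, had 80, 45 and 3 reads. The peak lay at the same region at all 3 stages, while the order of other regions changed: region 52171 had 3.23 in progenitors, 2.93 at day 1 and 0.45 at day 10, and region 52169 had 2.42, 2.02 and 0.94. Regions 52178 and 52179, just after the run, were lower by 0.82 and 0.65 and so missed the limit, and regions 52180 and 52181 were members again.

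The stretch around the largest fall, regions 72862 to 72878, mixed several histories. It held 7 late-loss regions and 5 regions lost at both steps, 2 broad regions and 3 flat ones. All but the 3 flat regions fell by 1 or more after day 1, and 9 of the 17 by 4-fold or more. Next in number to regions 72870 and 72871 came region 72872, which had 539 reads in progenitors, 221 at day 1 and 22 at day 10 and had thus begun its fall before day 1. Region 72875, lost at both steps, had 1487, 670 and 49 reads. In this stretch late-loss regions and regions lost in 2 steps stood side by side, but the limit of the first step set them apart. The late-loss regions 72866, 72867 and 72870 were also lower at day 1, with first steps of -0.85, -0.77 and -0.84. The other late-loss regions lay between -0.15 and 0.11. Regions lost at both steps had first steps between -1.65 and -1.13. The late-loss regions ended between 0.81 and 3.24 at day 10, above the median of 0.62 over all narrow regions, and those lost at both steps between -0.0026 and 1.81. Both stretches were chosen after their values were seen.

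**Figure D5:**
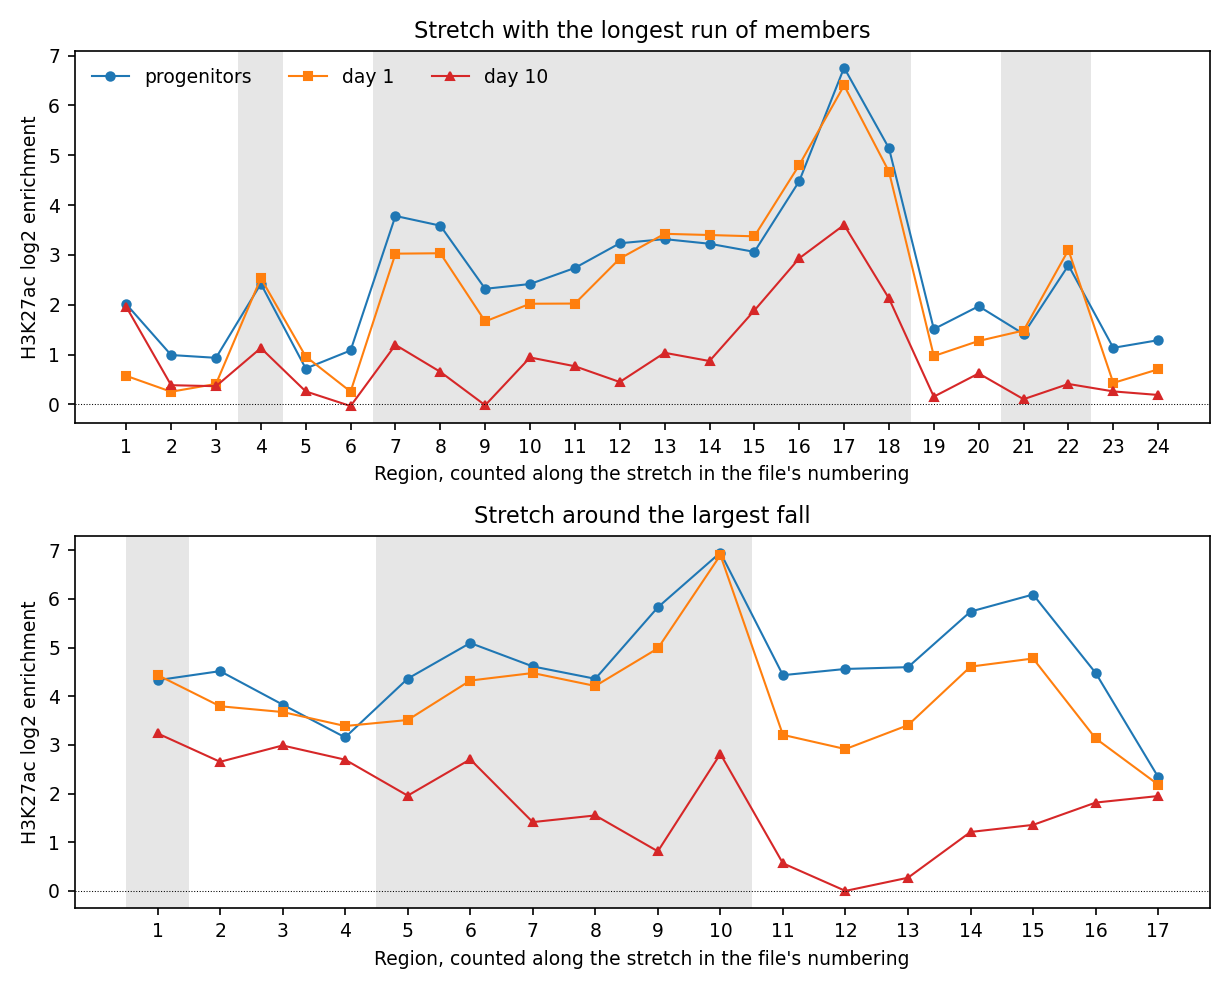
H3K27ac log2 enrichment in progenitors (blue), at day 1 (orange) and at day 10 (red) along 2 stretches of the list, with members shaded. The upper stretch holds the run of 12 members, in which the day 10 line lies 1.08 to 2.80 below the day 1 line; the lower one holds the member with the largest fall, 4.17, as its ninth region.

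Next to the other losses, late-loss regions started lower. Regions lost by day 1 only had median enrichments of 2.04 in progenitors, 0.67 at day 1 and 0.62 at day 10, and regions lost at both steps had 3.73, 2.19 and 0.62. The members, at 1.49, 1.69 and 0.24, began below both and ended below both. Regions gained only after day 1 had 0.32, 0.17 and 1.60. These groups were cut from the same values, so their levels are a description and were not tested.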

How the data were processed

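H3K27ac ChIP-seq covered 3 stages with 2 libraries each, grouped by sample title. The authors deposited log2 enrichment values, 1 per region and stage with both libraries merged, per the file headers. The submitters' processing notes name mm9, TopHat, Bowtie, HTSeq and DESeq; versions, roles, peak caller, reference and depth matching are not stated. Each value was found to be the log2 of the reads plus 16 over 16 plus 0.807 times a whole number of reference reads, shared by all stages. Reads were recovered for 140640 of 140641 regions, by a method tested on simulated data. RNA signal, deposited as normalised counts, was read for 4 markers only.

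Members were found on the differences as computed, with no read filter, and were chosen with earlier results of these data known, as were the comparisons. Named regions were the 6 largest falls among members with at least 50 reads at day 1, the 4 highest members in progenitors and at day 10, the widest, narrowest and median members and those at the limits; not all are printed. Intervals are exact (Clopper-Pearson; for a ratio, given the sum of both counts). Alternatives changed the width and step limits, scaling, pseudocount and a read minimum of 30. Python 3.11.15, numpy 2.4.6, pandas 2.3.3 and scipy 1.17.1 were used.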

Additional observations from a re-analysis of the deposited data

How the results depend on the processing

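No paired analysis was possible because each stage had 1 merged value per region. The number of late-loss regions was 11802 as reported. It was 19970 with a second-step limit of 0.75, 3528 with a limit of 1.5, 5951 with the first step within 0.5, 6504 with stages scaled to equal reads in regions, 21972 with a pseudocount of 1 and 4481 against regions of like day 1 value. With widths under 1000 bp it was 10383, with no width limit 12274, with each step centred on its median (-0.06 and -0.11 over all regions) 8695, with at least 30 reads 10793 and, with differences rounded to 9 decimals, 11924. Those last counts lay within 1.5 times the reported one. The settings with like day 1 value and with rounding were chosen after seeing the data.

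In the order width under 1000 bp, no width limit, limit 0.75, limit 1.5, first step within 0.5, centred, equal reads, pseudocount 1, 30 reads and like day 1 value, the median difference of day 10 minus progenitors, -1.21 as reported, was -1.13, -1.23, -0.98, -1.68, -1.32, -1.18, -1.02, -1.58, -1.29 and -1.06. In the same order the median width, 472 bp as reported, was 419, 491, 402, 584, 497, 515, 415, 293, 514 and 421 bp. The percentage of members higher at day 1 than in progenitors, 59.9% as reported, was 63.6%, 58.8%, 59.4%, 61.5%, 52.8%, 61.0%, 70.3%, 51.9%, 57.0% and 63.1%. Among the 4028 members whose read-ratio intervals met both limits it was 40.0%, so there the majority was lower at day 1 on the deposited scale. With a pseudocount of 1, 9445 regions were shared with the members, 80.0% of the members and 43.0% of that setting's regions. Depth limits the weak members most, since fewer than 16 reads at day 1 cannot give a member.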

Other observations

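Members were spread unevenly along the list. In 141 blocks of 1000 successive numbers, the share of narrow regions that were members had a median of 8.48% and quartiles of 7.20% and 9.64%. It was highest, at 18.0%, in the block that starts at region 55001 and lowest, at 2.54%, in the block that starts at region 57001. A block of the list need not be a stretch of the genome.

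The reference reads, which cancel in the differences the rule used, were recovered as well. Members had a median of 38.9 reference reads per kb, against 38.0 over all narrow regions. Regions lost by day 1 only had 31.3, regions lost at both steps 29.5 and regions gained by day 1 then lost 46.7. By level, members with a day 1 enrichment under 1 had 56.5 per kb, against 39.5 in all flat regions of that level, and members at 4 or more had 26.5, against 28.7. All flat regions with a day 1 enrichment under 1, at 39.5, lay close to the 38.0 over all narrow regions, so weak regions in general did not stand out. Regions with few reads at day 1 could not be members, and at a given level more reads go with more reference reads. The higher value of weak members is therefore in part fixed by the rule. How large that part is was not tested.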
